A study of Caenorhabditis elegans with 2 samples.

Results

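The genes described here encode the small GTPases, coats, tethers and SNARE proteins of vesicle traffic in Caenorhabditis elegans, and the question was where MADF-10, a protein of the MADF domain family, was found at their promoters. The members were taken by name, with no measured value in the rule, but the rule was set with earlier results of these data known. It took the protein-coding genes named rab-, arf-, arl-, sec-, syx-, snx-, apa-, apb-, apm- or aps- in the WBcel235 annotation, with the 7 genes of the COPI coat and epn-1. They came to 80 of 19985 protein-coding genes. The data are ChIP-seq, the sequencing of DNA pulled down with a chromatin protein, from 1 group of 2 biological replicates. Both were whole young adult hermaphrodites of strain OP508, genotype unc-119(tm4063) III; wgIs508, grown for 68 h after starved L1 larvae had been synchronised. The stable transgenic line carried MADF-10 with a GFP-FLAG tag at its C terminus, and an antibody against GFP was used. All tissues of the animal are averaged in such chromatin, and no untagged or untreated group was among the samples, so the comparisons are between genes and between the 2 replicates.

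Proteins made at the endoplasmic reticulum (ER) enter it through the Sec61 channel, leave it in COPII-coated vesicles and return from the Golgi in COPI-coated ones. Rab and Arf GTPases switch between an active and an inactive form and recruit coats, motors and tethers to a given membrane. The exocyst holds secretory vesicles at the plasma membrane, SNARE proteins drive membrane fusion, and clathrin adaptors, epsin and sorting nexins sort cargo at the plasma membrane and endosomes. Most of this machinery is used by every cell, while a few members, such as rab-3 at synaptic vesicles, are known for work in particular tissues.

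The deposited lists give each enriched region a summit and a signal value set by the authors. Signal is comparable only within a list, and depth is unknown, since no read numbers come with the lists used here. The list pooled over both replicates held 30000 regions with a median signal of 23.3, and that of reproducible peaks held 1869, the strongest of the pooled list, down to a signal of 92.3. The lists of replicates 1 and 2 held 25924 and 30000 regions, with median signals of 10.8 and 17.9. The promoter window of a gene started 1000 bp before each of its annotated transcript starts and ended 200 bp after it, and a gene counted where a window held a summit. At the promoter of madf-10 itself the pooled signal was 13878, with 4214 and 9726 in replicates 1 and 2. The transgene also carries madf-10. Whether it holds this promoter is not given, and its part in this signal was not tested.

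Vesicle traffic genes had a reproducible promoter peak in 19 of 80 cases (23.8%, exact binomial 95% interval 14.9 to 34.6). Over all protein-coding genes the share was 6.38%. The strongest were epn-1, the Sec61 subunit genes sec-61.G and sec-61.B, rab-7 and the exocyst gene sec-15. At sec-61.B, rab-7 and sec-15 the summit lay nearer to the start of another gene. In each replicate's own list, cut to its 1869 strongest regions, 19 members had a summit in replicate 1 against a share of 6.05% over all genes. In replicate 2 there were 18 such members against 6.4% over all genes. The mean was 18.5 ± 0.707 members (SD, n = 2), and 17 of the 19 were in both of these lists. Intervals cover counting error only. With 1 group of samples no test between conditions could be made, and genes are not replicates, so shares are given beside those of all genes without a p-value.

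Regions of any strength were counted as well. One lay in the promoter window of 61 members (76.2%), the 19 with a reproducible peak included. The share over all protein-coding genes was 39.4%. In the pooled list 12 members (15%) had their strongest region between ranks 1870 and 5000, against 8.19% of all genes. Another 12 lay between ranks 5001 and 10000, against 8.37%. The weakest regions came nearer to the share of all genes. Between ranks 10001 and 20000 there were 11 members (13.8%), against 10%. From rank 20001 to 30000 there were 7 (8.75%), against 6.43%. No pooled region was found for 19 members (23.8%), against 60.6% of all genes.

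**Figure D1:**
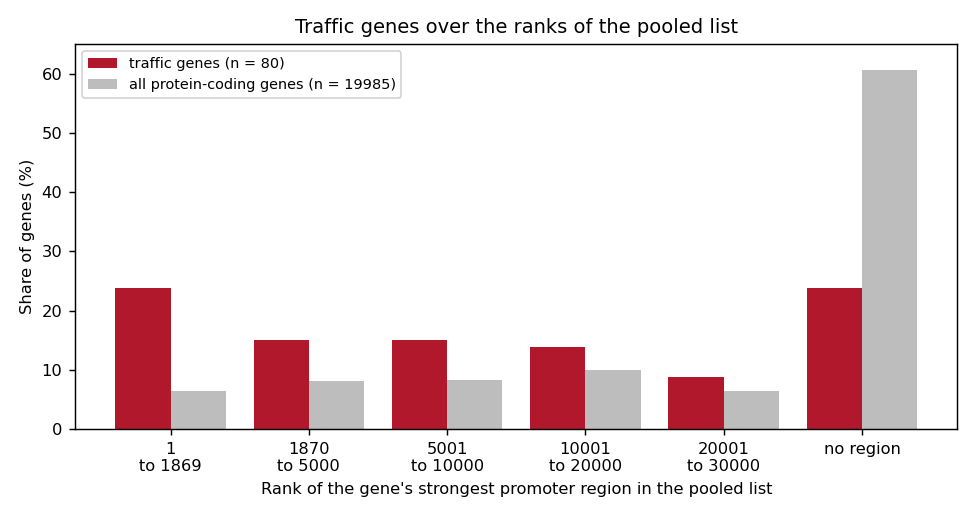
Share of genes in percent (vertical axis) by the rank of a gene's strongest promoter region in the pooled list (horizontal axis), for the 80 traffic genes and for all 19985 protein-coding genes. The traffic genes stand at 23.8% in the first class, where all genes stand at 6.38%, and at 23.8% in the last class, genes with no region, where all genes stand at 60.6%.

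The letters under the summits are shown for the 8 members with the strongest peaks, and for sec-3 and sec-24.1, added after the data were seen because they hold an element shared with some of these. Each stretch reaches 100 bases to either side of the summit, its middle base, and is written on the strand of its gene, from the RefSeq sequence of WBcel235 (ce11). They are epn-1 at chrX:14818847-14819047 (minus strand), sec-61.G at chrV:10897271-10897471 (minus strand), sec-61.B at chrIV:2389011-2389211 (minus strand), rab-7 at chrII:11967614-11967814 (minus strand), sec-15 at chrX:8835985-8836185 (minus strand), snx-13 at chrIV:17087511-17087711 (minus strand), arf-1 at chrIII:5715642-5715842 (plus strand), rab-18 at chrIII:1080618-1080818 (minus strand), sec-3 at chrX:3099917-3100117 (minus strand) and sec-24.1 at chrIV:11566233-11566433 (minus strand). Capitals mark the 5 sequences of 6 bases with the largest excess at the other reproducible peaks, on either strand: GAGAGA first, then AGAGAG, then CGTCTC, then AGAGAC and last GACGCA. Letters of one can belong to the next, since several of them overlap.
epn-1: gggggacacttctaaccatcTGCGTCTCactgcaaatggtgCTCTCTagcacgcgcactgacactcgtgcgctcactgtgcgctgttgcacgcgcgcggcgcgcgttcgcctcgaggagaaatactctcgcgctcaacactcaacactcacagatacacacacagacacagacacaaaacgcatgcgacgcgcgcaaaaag
sec-61.G: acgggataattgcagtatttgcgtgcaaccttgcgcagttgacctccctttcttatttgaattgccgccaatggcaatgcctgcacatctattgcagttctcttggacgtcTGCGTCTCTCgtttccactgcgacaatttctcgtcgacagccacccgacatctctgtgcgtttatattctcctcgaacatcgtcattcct
sec-61.B: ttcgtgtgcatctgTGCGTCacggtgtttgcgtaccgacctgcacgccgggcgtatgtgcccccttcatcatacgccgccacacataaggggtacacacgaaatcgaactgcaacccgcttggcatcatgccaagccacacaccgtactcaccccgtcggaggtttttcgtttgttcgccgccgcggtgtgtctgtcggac
rab-7: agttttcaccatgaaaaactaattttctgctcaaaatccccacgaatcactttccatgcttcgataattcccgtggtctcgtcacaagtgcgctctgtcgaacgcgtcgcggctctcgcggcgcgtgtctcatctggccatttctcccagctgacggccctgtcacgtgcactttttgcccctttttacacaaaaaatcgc
sec-15: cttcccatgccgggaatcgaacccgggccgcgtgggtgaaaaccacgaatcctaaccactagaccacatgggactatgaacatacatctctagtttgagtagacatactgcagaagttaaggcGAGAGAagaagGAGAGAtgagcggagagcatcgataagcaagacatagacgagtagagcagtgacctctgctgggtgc
snx-13: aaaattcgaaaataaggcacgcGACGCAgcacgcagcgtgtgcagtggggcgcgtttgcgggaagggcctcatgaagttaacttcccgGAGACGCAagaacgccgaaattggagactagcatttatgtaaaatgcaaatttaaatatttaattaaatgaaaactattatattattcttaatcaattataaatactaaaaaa
arf-1: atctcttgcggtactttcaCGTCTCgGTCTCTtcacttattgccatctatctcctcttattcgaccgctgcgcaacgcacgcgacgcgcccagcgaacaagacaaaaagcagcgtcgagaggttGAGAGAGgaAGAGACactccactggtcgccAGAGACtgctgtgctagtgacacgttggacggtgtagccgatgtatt
rab-18: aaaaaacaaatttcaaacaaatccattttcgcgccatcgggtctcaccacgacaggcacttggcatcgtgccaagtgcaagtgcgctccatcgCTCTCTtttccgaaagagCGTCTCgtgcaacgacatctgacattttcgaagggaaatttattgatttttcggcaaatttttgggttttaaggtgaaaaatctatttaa
sec-3: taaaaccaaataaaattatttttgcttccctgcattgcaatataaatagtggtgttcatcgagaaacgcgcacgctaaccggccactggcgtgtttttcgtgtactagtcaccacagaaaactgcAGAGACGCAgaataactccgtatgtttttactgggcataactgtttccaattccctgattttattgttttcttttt
sec-24.1: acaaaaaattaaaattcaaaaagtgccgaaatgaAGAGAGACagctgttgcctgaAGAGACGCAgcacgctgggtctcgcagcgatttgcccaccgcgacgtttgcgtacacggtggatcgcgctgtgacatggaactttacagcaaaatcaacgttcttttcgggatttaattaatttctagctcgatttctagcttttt

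These 5 sequences were ranked on 1544 reproducible peaks away from members and tRNA genes, by their share of windows reaching 50 bases to either side of the summit, less that of equal windows centred 300 bp away. GAGAGA stood in 25.3% of those centres and in 6.96% of the flanking windows. It was found in 5 of the 19 members' centres (26.3%), in 5.26% of their flanking windows and in 7.48% of promoter windows of that length over all genes. CGTCTC stood in 18.8% of the centres of other peaks and in 5 of the members' centres (26.3%). It was in 2.63% of the members' flanking windows and in 3.57% of all promoters. Joined to the overlapping complement of GACGCA it reads TGCGTCTC, an element put together after the data were seen. In windows of 201 bases TGCGTCTC was present at 5 of 19 members: epn-1, sec-61.G, snx-13, sec-3 and sec-24.1. The share was 26.3%, beside 13.3% of the other reproducible peaks, 1.46% of the weaker 50% of pooled regions and 2.32% of promoters (bases 300 to 100 upstream of each start). The other joined elements were rarer at the members. GAGAGACG was at 1 member (5.26%) and 7.06% of other reproducible peaks. GTCTCTCT was also at 1 member, and at 5.83% of other reproducible peaks. The stretch at rab-7 held none of the 5, and that at sec-15 held GAGAGA at 2 places.

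Of 8 further motifs sought on both strands of the same 201 bases, GAGAGA, which is also among the 5 above, was at 8 of 19 members (42.1%), 40.5% of other reproducible peaks and 14.2% of all promoters. TGACGT, the core of the cAMP response element, was at 3 members (15.8%), beside 10.4% of other reproducible peaks and 7.01% of all promoters. The E-box CACGTG was at 1 member (5.26%), beside 9.72% and 3.33%, and the GC box CCGCCC at 1, beside 11.3% and 4.66%. CGCGCG was at 2 members (10.5%), beside 9.78% of other reproducible peaks and 2.23% of all promoters. TATAAA was at 5 members (26.3%), beside 13% of other reproducible peaks and 25% of all promoters. Neither TGATAA, the site bound by GATA factors, nor TTTTTTTT was in any of these 19 windows. The first was in 17.9% of other reproducible peaks and 21.2% of all promoters, and the second in 11.9% and 24.2%. The median GC content was 44.3% at the members and at other reproducible peaks, 35.8% at weak regions and 33.8% in all promoters. The part of base composition in these shares was not tested.

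Of the 4 genes for entry into the ER, 3 had a reproducible peak, against 6.38% of all genes. These 3 encode the subunits of the Sec61 channel: sec-61.A (alpha), sec-61.B (beta) and sec-61.G (gamma). At sec-61.G the pooled signal was 405, with 115 in replicate 1 and 292 in replicate 2, at ranks 98, 139 and 95. At sec-61.B the pooled, replicate 1 and replicate 2 signals, given in this order from here on, were 345, 91.7 and 253. At sec-61.A they were 132, 35.6 and 99.3. Both replicates thus placed sec-61.G above sec-61.B and sec-61.B above sec-61.A. The peak of sec-61.A counted only through an internal start, and that of sec-61.B lay nearer to the start of another gene, trap-3. Under the nearest-start rules described below, 1 of the 4 genes remained among starts whose window held the summit, and 2 with all annotated starts. The gene for the signal peptidase subunit sec-11 had no region in any of the 3 lists.

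The COPII and COPI coats had 1 reproducible peak each among 7 genes. In COPII it was sec-24.1, which encodes a cargo-binding subunit, with signals of 111, 36.5 and 75.5. The other COPII genes with a pooled region lay between 13.1 (sec-31, outer coat) and 45.9 (sec-12, the exchange factor that starts coat assembly). In COPI it was copz-1, the zeta subunit, with 151, 48.2 and 103. The subunit genes copg-1, copd-1 and copb-2 lay below the reproducible list, with pooled signals of 82.5, 76.0 and 74.5. The other COPI genes with a region, copa-1 and copb-1, had 24.4 and 13.6.

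Among 20 Rab genes, 4 had a reproducible peak and 9 had no pooled region. The strongest was rab-7, which acts at late endosomes and lysosomes, with 310.0, 110.0 and 205. A second reproducible peak at rab-7, with a signal of 108, had its summit 83 bp downstream of the annotated start. Next came rab-18, linked to lipid droplets and the ER, with 159, 46.5 and 114. The signals were 142, 43.0 and 98.2 at rab-1, which acts between ER and Golgi. They were 122, 38.1 and 86.5 at rab-11.1, which acts at recycling endosomes. The early endosome gene rab-5 had a pooled signal of 79.3, below the list. At rab-14 replicate 1 gave 44.1 (rank 1035) and replicate 2 gave 30.3 (rank 6346), so the replicates placed it on opposite sides of their 1869 strongest regions. The genes without a region in any list were rab-10, rab-11.2, rab-21, rab-28, rab-37 and rab-6.1.

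Of the 3 Arf genes 2 had a reproducible peak. The gene arf-1, whose protein recruits COPI and clathrin adaptors to the Golgi, had 170.4, 74.8 and 97.6. Its summit lay in an intron, 373 bp upstream of an internal start and 856 bp downstream of the outermost one. At arf-6, which acts at the plasma membrane and endosomes, the pooled signal was 93.3, the lowest of the 19. Neither replicate had arf-6 among its own 1869 strongest regions (signals 26.9 and 64.5). None of the 6 Arl genes had a reproducible peak. The highest was arl-3, known for its role in cilia, at 49.5, and arl-8, which acts on lysosomes and synaptic vesicle precursors, had 12.7.

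Among tethers and fusion proteins, 4 genes had a reproducible peak. Of the 6 exocyst genes, sec-15, sec-3 and sec-8 had reproducible peaks. The signals at sec-15 were 261, 84.4 and 173. Its summit lay 28 bp from a tRNA gene (chromosome X, 8836113 to 8836184), which fills bases 2 to 73 of the stretch shown above. Without peaks at tRNA genes 18 members remained, against 6.01% of all genes, and sec-15 was not among them. The signals at sec-3 were 142, 52.8 and 90.1, and those at sec-8 were 131, 53.6 and 77.7. The sec-8 summit lay at 10446559 on chromosome I, where madf-10, the tagged gene, spans 10436895 to 10437779. How far the transgene reaches beyond madf-10 is not given, and its part in the sec-8 signal was not tested. The other exocyst genes sec-10, sec-5 and sec-6 had pooled signals of 38.1, 25.7 and 17.2. Of 11 SNARE genes only syx-5, the syntaxin of ER to Golgi traffic, was in the list, with 144, 36.3 and 111. The next was syx-18, an ER syntaxin, at 70.9, and syx-2 and syx-17 had no region in any list.

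The strongest member was epn-1, an endocytic adaptor gene that the rule took by its own name, with earlier results known. It encodes epsin, which binds clathrin and ubiquitylated cargo at the plasma membrane. Its promoter had signals of 758, 239 and 522, at ranks 42, 51 and 41. The same region was listed a second time with a summit 643 bp upstream of the start and a signal of 101.3. Of 8 clathrin adaptor genes, apb-1, a beta subunit of AP-2 and AP-1, had 157, 46.8 and 101.4. The AP-2 alpha subunit gene apa-2 had 122, 61.1 and 60.9, and was at rank 524 in replicate 1 and 2103 in replicate 2. The gene aps-3, a sigma subunit of AP-3, had 91.8, just under the weakest reproducible peak. Among 7 sorting nexins snx-13 was in the list with 189, 65.9 and 123. The retromer partner snx-3 followed with 79.8, and its replicates differed in rank, 7587 and 2071.

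**Figure D2:**
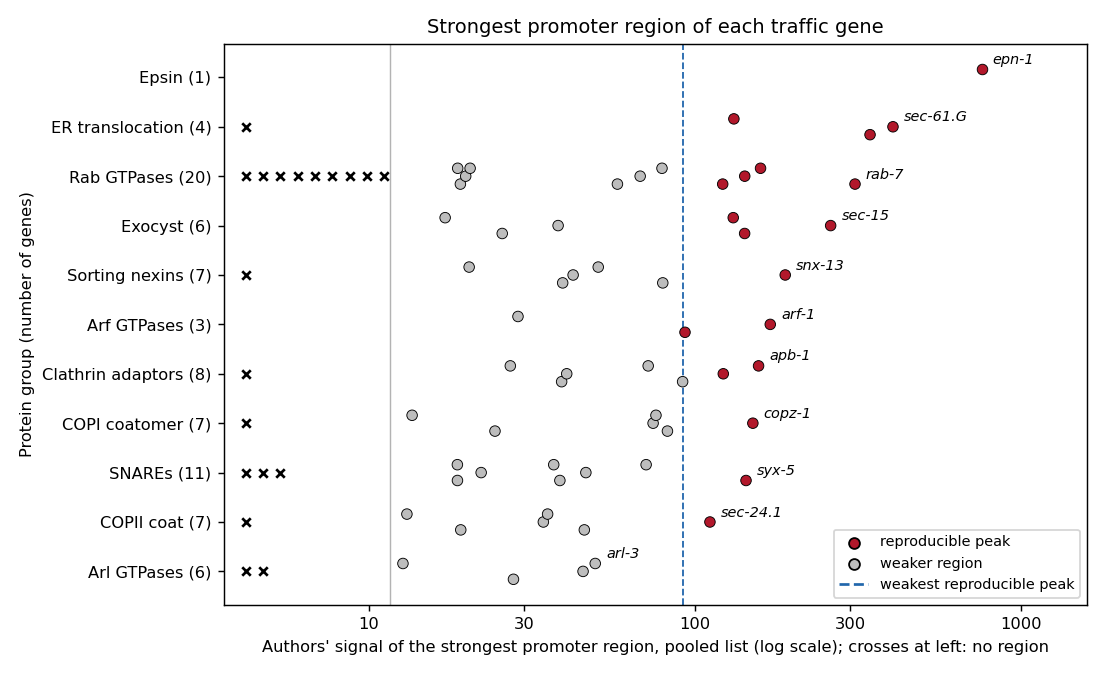
Authors' signal of the strongest promoter region of each traffic gene in the pooled list (log scale), by protein group with the number of genes in brackets. Red points are reproducible peaks, grey points weaker regions, crosses genes with no region, and the dashed line is the weakest reproducible peak at 92.3; Arl is the group with no red point, and epn-1 stands highest at 758.

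Around the border of the reproducible list the members lay close together. The 5 weakest inside were arf-6 (93.3), sec-24.1 (111), rab-11.1 (122), apa-2 (122) and sec-8 (131). The 5 strongest outside were aps-3 (91.8), copg-1 (82.5), snx-3 (79.8), rab-5 (79.3) and copd-1 (76.0). The authors' reproducible list for build ce10 was longer, with 2878 peaks. If as many pooled ce11 regions were taken, a choice made after seeing the data, 27 members were included, against 9.51% of all genes.

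Over the 49 members with a region in both replicates, Spearman's rho between the signals was 0.85. This is a description over genes that share 1 pair of libraries. Each replicate gave its own strongest region in the promoter window, so a pair can be 2 different regions. At sec-10, for example, the summits were at 7783106 in replicate 1 and 7782419 in replicate 2. Summits of the 19 peaks lay close together in the replicates. Their distance from the pooled summit, 38 values in all, had a median of 10 bp and was within 50 bp in 36 cases. The largest was 143 bp, at sec-8 in replicate 2. The pooled list contains both replicates, so these distances are not independent of it.

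**Figure D3:**
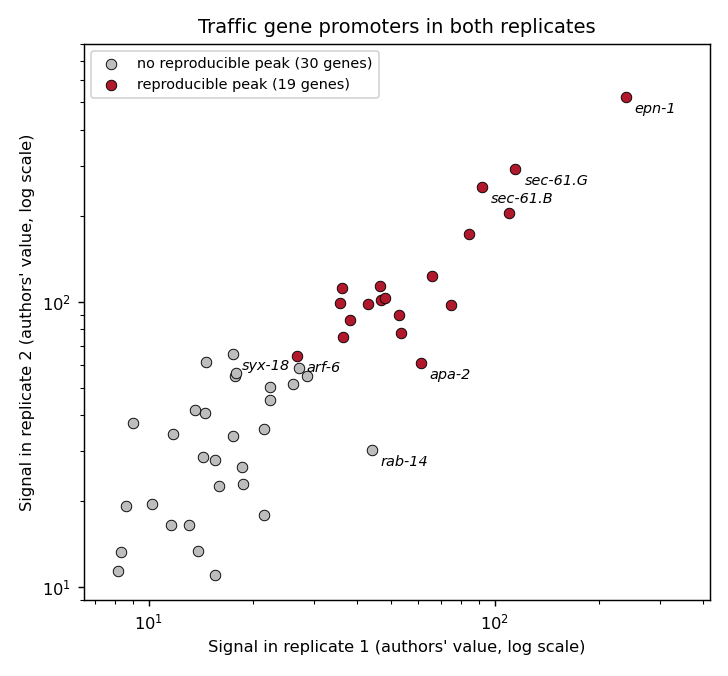
Authors' signal of the strongest promoter region in replicate 1 (horizontal) and in replicate 2 (vertical), both on log scales, for 49 traffic genes. These have a promoter region in both lists, and red points are the 19 genes with a reproducible peak. The points rise together, with epn-1 at 239 and 522, while rab-14 (44.1 and 30.3) and apa-2 (61.1 and 60.9) lie lower in replicate 2 than genes of like signal in replicate 1.

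Most peaks of the traffic genes were shared with another gene. The summit lay in the promoter window of at least 1 more gene at 14 of 19 members (73.7%), and over all 1275 genes with a reproducible peak this share was 48%. At 13 of the 14 a gene on the opposite strand was among them (92.9%), a share near the 91% over all genes with a shared peak. The neighbour's start was nearer to the summit than any start of the member at 7 members: sec-61.B, rab-7, sec-15, syx-5, rab-1, rab-11.1 and arf-6. At copz-1 the summit lay 134 bp upstream of both its own start and that of the cyclophilin gene cyn-4. Where a peak lies between 2 such genes, ChIP-seq does not show to which of them it belongs. With each peak counted once, for the nearest start among those whose window held the summit, 11 members had one, against 4.84% of all genes. With the nearest of all annotated starts and ties kept, an alternative added after the data were seen, 13 members had one, against 4.81%. The change came from sec-61.A and from copz-1, which was tied.

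Of the 16 neighbours at these peaks, 9 carry a gene name and 7 only a sequence name. The peak at sec-61.B lay 436 bp upstream of its start and 334 bp upstream of trap-3, which encodes a subunit of the translocon-associated protein complex, on the other strand. The peak at sec-61.A lay in a UTR exon of that gene, 248 bp downstream of its outermost start and 663 bp upstream of rps-18, a gene of the small ribosomal subunit. It counted for sec-61.A only through an internal start, 686 bp on. At rab-11.1 the summit was 679 bp upstream of its start and 302 bp upstream of rpl-7, of the large ribosomal subunit. The peak at snx-13 was 173 bp upstream of its own start and 438 bp upstream of snr-1, a core spliceosomal Sm protein gene. At rab-7 the summit was 783 bp upstream, 170 bp from W03C9.5 and 923 bp from mex-1, a germline RNA regulator. At apb-1 it was 217 bp upstream, and 802 bp from the Mediator gene mdt-19. Inside rab-18, 57 bp downstream of the start, the summit was 183 bp upstream of the kinetochore gene kbp-4 and 683 bp upstream of par-2, a cell polarity gene. Of the genes with a sequence name, C28G1.2 had the summit of the sec-15 peak just inside its start, and the other 6 had summits 142 to 828 bp upstream. The peaks of epn-1, arf-1, sec-3, apa-2 and sec-24.1 counted for no other gene.

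Peaks were also counted by how the genes are arranged. A head-to-head neighbour, whose start lies on the other strand within 1000 bp upstream of the outermost start, was present at 24 members (30%) and at 17.7% of all protein-coding genes. Of these 24, 11 had a reproducible peak (45.8%), against 14.1% of all head-to-head genes. Of the other 56 members, 8 had one (14.3%), against 4.73% of all other genes. These counts are small, and the part of gene arrangement in the members' share was not tested.

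Summits lay upstream of the nearest of all own starts at 17 of 19 members, all but rab-18 and sec-61.A, and the median was 228 bp upstream over the 19. The farthest was rab-7, at 783 bp, and 8 were within 250 bp upstream. Over all 1275 genes with a reproducible peak 94.4% of summits lay upstream and the median was 259 bp. The window reached 1000 bp upstream and only 200 bp downstream, so a large upstream share follows in part from the window itself. When only starts whose window held the summit were used, 18 members lay upstream, with a median of 370 bp against 263 bp over all genes. Of the 19 summits, 15 lay between protein-coding genes and 4 within one.

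**Figure D4:**
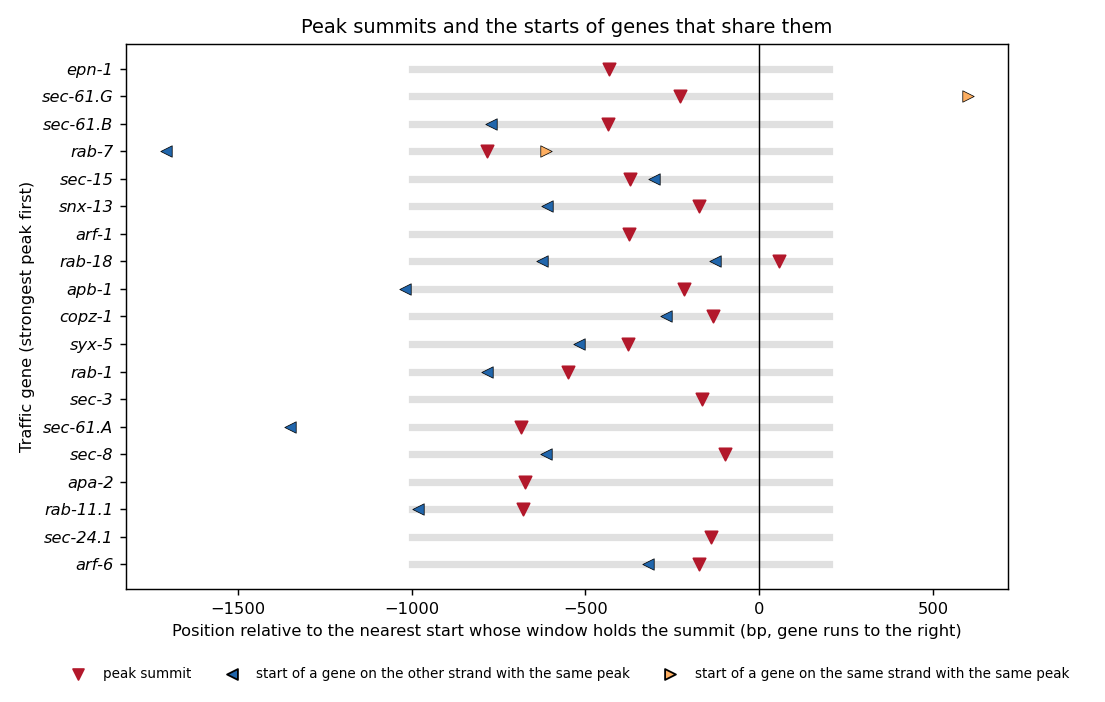
Position of the summit of each of the 19 reproducible peaks (triangles pointing down) relative to the traffic gene's nearest start whose window holds it, in bp, with genes reading to the right and the promoter window in grey. Arrowheads are the starts of genes that share the peak, on the other strand (blue) or the same strand (orange); 14 of the 19 rows have at least 1, and epn-1, arf-1, sec-3, apa-2 and sec-24.1 have none.

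Other genes of the pathway were listed by name as clathrin and its partners, SNAREs and regulators with other names, Rab and Arf regulators, Golgi tethers and cargo receptors. Of these 121 genes, 12 (9.92%, exact binomial 95% interval 5.23 to 16.7) had a reproducible promoter peak. Over all genes the share was 6.38%. The interval covers counting error only, and no test between these shares was made. A region of any strength was present at 90 (74.4%), against 39.4% of all genes. The 5 strongest were dpy-23 (560.4), the mu subunit of AP-2; vps-51 (363), a tethering complex subunit; flcn-1 (271), folliculin; ile-2 (198), a cargo receptor; and rbg-3 (194). Also in the list were dyn-1 (124), the dynamin that cuts vesicles free, nsf-1 (109.8), which takes SNARE complexes apart, and cogc-3 (165), of the Golgi tether COG. The 4 subunit genes of AP-2 were brought together from members and other genes after their values were seen. Of these, apa-2, apb-1 and dpy-23 had a peak, beside a share of 6.38% over all genes. The region of apa-2 was not among the 1869 strongest of replicate 2, and apb-1 also serves AP-1. The sigma subunit gene aps-2 had a pooled signal of 40.5. Clathrin itself had weak regions, with 25.5 at the heavy chain gene chc-1 and 24.0 at the light chain gene clic-1, while the clathrin assembly gene unc-11 had 59.8. Of the genes known for neuronal exocytosis, the synaptobrevin gene snb-1 had 73.4, and it was among the 1869 strongest regions of replicate 2 (rank 1851) but not of replicate 1 (rank 9890). The pooled signals were 24.7 at unc-18, 23.4 at the SNAP-25 gene ric-4 and 13.3 at unc-13, and the syntaxin gene unc-64 had no pooled region.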

How the data were processed

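The deposited lists are narrowPeak files of peaks and background regions on builds ce10 and ce11. According to the deposited readme text, the list of a replicate was made from its alignments with a control file, the pooled one from the alignments of both, and the reproducible list (optimal by irreproducible discovery rate) from these. For the aligner, caller and thresholds nothing is stated in the sources read here. Signal values set by the authors (column 7) were used to rank regions within a list. Names and starts came from Ensembl release 115 of WBcel235, the assembly of ce11, and sequence from RefSeq's copy. Only the number of peaks was taken from ce10. Scripts ran in Python 3.11.15 with pandas 2.3.3, numpy 2.4.6, scipy 1.17.1, pysam 0.24.0 and matplotlib 3.10.9, and the matching of summits to windows was tested on simulated data. Members, lists, motifs and groups were chosen with earlier results of these data known. Genes were named by rule: members with a reproducible peak, the 5 next to its border on either side, the strongest per group, the 5 strongest other pathway genes, and neighbours. Further genes named beside them were picked after their values were seen. The other pathway list had 86 names or name starts. Of these, lman-1, erd-2 and the name start rabg- matched no protein-coding gene of the annotation. Intervals are exact binomial.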

Additional observations from a re-analysis of the deposited data

How the results depend on the processing

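The count of 19 members with a reproducible promoter peak went from 11 to 27 over 11 alternatives. It fell to 11 with the nearest start only (among starts whose window held the summit), where arf-6, copz-1, rab-1, rab-11.1, sec-15, sec-61.A, sec-61.B and syx-5 were lost, and stayed within 1.5 times of 19 in the other 10. With the nearest start only, the share over all genes also moved, from 6.38% to 4.84%. The nearest of all annotated starts gave 13, against 4.81% of all genes. The members in the list under every alternative were the 7 genes apb-1, epn-1, rab-18, rab-7, sec-3, sec-61.G and snx-13. In the narrow window and under both nearest-start rules, rab-7 stayed only through its second, weaker peak (signal 108, rank 1462). The narrow window (500 bp upstream to 100 bp downstream) gave 15, against 4.89% of all genes. The wide one (2000 to 500 bp) gave 23, against 8.54%, and the stronger 50% of the peaks 13, against 3.33%. Leaving out replicate 1 gave 18 members, against 6.4% of all genes, and leaving out replicate 2 gave 19, against 6.05%. The other traffic genes went from 12 to 6 with the stronger 50% and to 19 with as many regions as on ce10, and to between 13 and 14 without a replicate. Peaks were found in 10 of 11 protein groups in the main setting. Counts within groups are small, and several moved by over 1.5 times. Arf genes went from 2 to 1 without replicate 1, without replicate 2, with the outermost start, with the stronger 50% and under both nearest-start rules. Rab genes went from 4 to 2 with the narrow window and under both nearest-start rules. Clathrin adaptor genes went from 2 to 1 without replicate 1, with the narrow window and with the stronger 50%, and to 4 with the number of ce10. COPI went from 1 to 0 with the nearest start only, to 2 with the wide window and to 4 with the number of ce10. COPII went from 1 to 0 with the stronger 50%, and ER entry genes from 3 to 1 with the nearest start only. SNAREs went from 1 to 0 under both nearest-start rules, and to 2 without replicate 1 and with the number of ce10, which also gave 2 sorting nexins in place of 1. The median rank of the 19 was 787 in the pooled list and 710 to 845 with 1 replicate. No paired analysis was possible because the samples form 1 group. The depth behind the lists is not given, so a weak or missing region does not show that MADF-10 was absent.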

Other observations

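Of the 19 members without a pooled promoter region, 7 had one in a single replicate and 12 in no list. The strongest of the 7 was at rab-3, which encodes the Rab of synaptic vesicles. Replicate 2 gave it a signal of 52.2 and rank 2710, and replicate 1 listed no region there. The nearest pooled summit lay 1133 bp away, with a signal of 19.2. The other 6, at arl-5, cope-1, rab-30, rab-33, snx-14 and syx-6, had signals of 7.15 to 12.4.

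The share of members with a reproducible peak ranged over the chromosomes from 2 of 17 on chromosome I (11.8%, against 8.13% of all its genes) to 3 of 7 on chromosome V (42.9%, against 4.47%). On chromosome X it was 4 of 16 (25%, against 6.08%). No test was made of these small counts.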
